A study of Mus musculus with 12 samples.

Results

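The MHC class II antigen presentation genes were described in kidneys of mice with and without polycystic kidney disease. The group held 10 genes of the 35275 in the deposited table, picked out by symbol, with earlier results of these data known: the chain genes *H2-Aa*, *H2-Ab1* and *H2-Eb1*, the peptide-loading genes *H2-DMa*, *H2-DMb1*, *H2-DMb2*, *H2-Oa* and *H2-Ob*, the invariant chain gene *Cd74* and the transactivator gene *Ciita*. All 10 symbols were found, each in 1 row. Poly(A) RNA of kidney tissue had been sequenced from 12 C57BL/6J mice at 6 months of age. The mice formed 3 groups of 4 (2 females and 2 males each). WT mice carried no engineered allele. RC/RC mice were homozygous for the RC missense knock-in of *Pkd1*, the gene most often mutated in human autosomal dominant polycystic kidney disease. RC/RC:*Casp1*KO mice carried the same *Pkd1* alleles and, in every cell, a homozygous TALEN-made deletion in *Casp1*, the gene of the inflammasome protease Caspase-1; they came from 1 deletion line, Del3. No group had the *Casp1* deletion on normal *Pkd1*, and the columns of the table did not say which mouse was female.

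MHC class II molecules are pairs of an α and a β chain that carry peptides from endosomes to the surface of dendritic cells, B cells and macrophages, where CD4 T cells read them. The invariant chain fills the groove during assembly, H2-DM exchanges its last fragment for other peptides, and H2-O holds H2-DM back in some cells. CIITA is brought to class II promoters by factors bound to a conserved X box and Y box, and interferon γ is its best known inducer outside the constitutive presenting cells. C57BL/6 mice lack the H2-E α chain, so the *H2-Eb1* transcript is made without a surface H2-E partner. In kidney, resident macrophages and dendritic cells supply most class II, and tubule cells can acquire it in inflammation.

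Promoter windows from RefSeq (GRCm38.p6, the same assembly as mm10; 250 bases before to 50 after the start) were held for 7 of the 10 genes. They were searched for the letters ACNGATG, part of the X box, and for CCAAT or its complement ATTGG, the core of the Y box, on both strands. In *H2-DMb1*, *H2-DMb2* and *H2-Eb1*, and in the related *H2-Eb2*, ACNGATG was followed on the gene's strand by ATTGG 29 or 30 bases later, counted from first letter to first letter. That arrangement, allowing a spacing of 20 to 45 bases with no overlap, was present in 0.1% of the 32851 windows on the gene's strand and in 0.189% on either strand, against 9.85% for ACNGATG alone and 37.4% for CCAAT alone. The stretches are shown to let the shared letters be compared, with the matches in capitals and both H2-E promoters carried through to ATTGG. The H2-DM stretches stop before ATTGG because they lie inside the gene as the deposited table bounds it.
H2-Eb1, chr17:34305764-34305827, plus strand: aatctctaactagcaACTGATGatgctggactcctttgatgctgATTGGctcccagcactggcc
H2-Eb2, chr17:34325531-34325594, plus strand: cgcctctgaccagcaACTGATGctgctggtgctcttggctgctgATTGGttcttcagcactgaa
H2-DMb1, chr17:34153094-34153123, plus strand: ctagtaACTGATGatgctaggctgattcac
H2-DMb2, chr17:34145123-34145152, plus strand: ctattaACCGATGatgctaggctaagtcac

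The windows of *H2-Aa* and *H2-Oa* held both sets of letters but not in that arrangement, and that of *H2-Ob* held only the Y-box letters. Of the 2 windows of *H2-DMa*, both upstream of the gene start in the deposited table, 1 held the Y-box letters and neither held the X-box letters. A match of letters is a description of the sequence and was not tested for binding. In the table's mm10 coordinates *H2-DMa* lay at chr17:34135182-34139101, *H2-DMb2* at chr17:34143307-34151553, *H2-DMb1* at chr17:34153072-34160230, *H2-Ab1* at chr17:34263209-34269418, *H2-Aa* at chr17:34282744-34287827 and *H2-Eb1* at chr17:34305877-34316199.

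Libraries that stood apart were looked for first, since several results rest on them. Reads counted on genes ranged from 20556335 to 22656309 in WT, from 18019819 to 24284831 in RC/RC and from 18738755 to 24869454 in RC/RC:*Casp1*KO. Levels are given as CPM, the reads of a gene relative to the size of its library, with TMM factors of the 12 libraries. Mice are numbered 1 to 4 within a group in the order of the table's columns. Added over the 10 genes, the level was 860, 601, 558 and 552 CPM in WT mice 1 to 4, 1942, 1906, 1835 and 1455 CPM in RC/RC mice, and 1201, 1161, 1086 and 2028 CPM in RC/RC:*Casp1*KO mice. RC/RC:*Casp1*KO mouse 4 therefore lay above all RC/RC mice, while the other 3 mice of its group lay between WT and RC/RC. It was the highest of its group for 10 of 10 genes and the highest of all 12 mice for 8. WT mouse 1 was the highest of the WT group for 6 of 10 genes. RC/RC mouse 2 carried adipocyte transcripts, with 1182 CPM summed over *Cfd*, *Adipoq*, *Plin1* and *Lep* against 0.0382 to 124 CPM in the other RC/RC mice, but its summed class II level was within the range of its group.

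*Casp1* itself was read first as a check of the labels. It was at 2.05, 1.29, 1.31 and 1.41 CPM in WT mice, 3.33, 3.87, 4.24 and 2.62 CPM in RC/RC and 0.382, 0.667, 0.665 and 1.06 CPM in RC/RC:*Casp1*KO mice. No RC/RC:*Casp1*KO mouse reached the level of any mouse of the other groups, and mouse 4 was the highest of the 4. The log2 fold change against RC/RC was -2.35 (SE 0.32, adjusted p = 0.00514, from the quasi-likelihood test of edgeR, adjusted by the Benjamini-Hochberg method, as is every adjusted p here unless DESeq2 is named). Against WT it was -1.12 (SE 0.35, adjusted p = 0.128, and adjusted p = 0.0489 with DESeq2). *Pkd1* did not pass in any comparison.

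**Figure D1:**
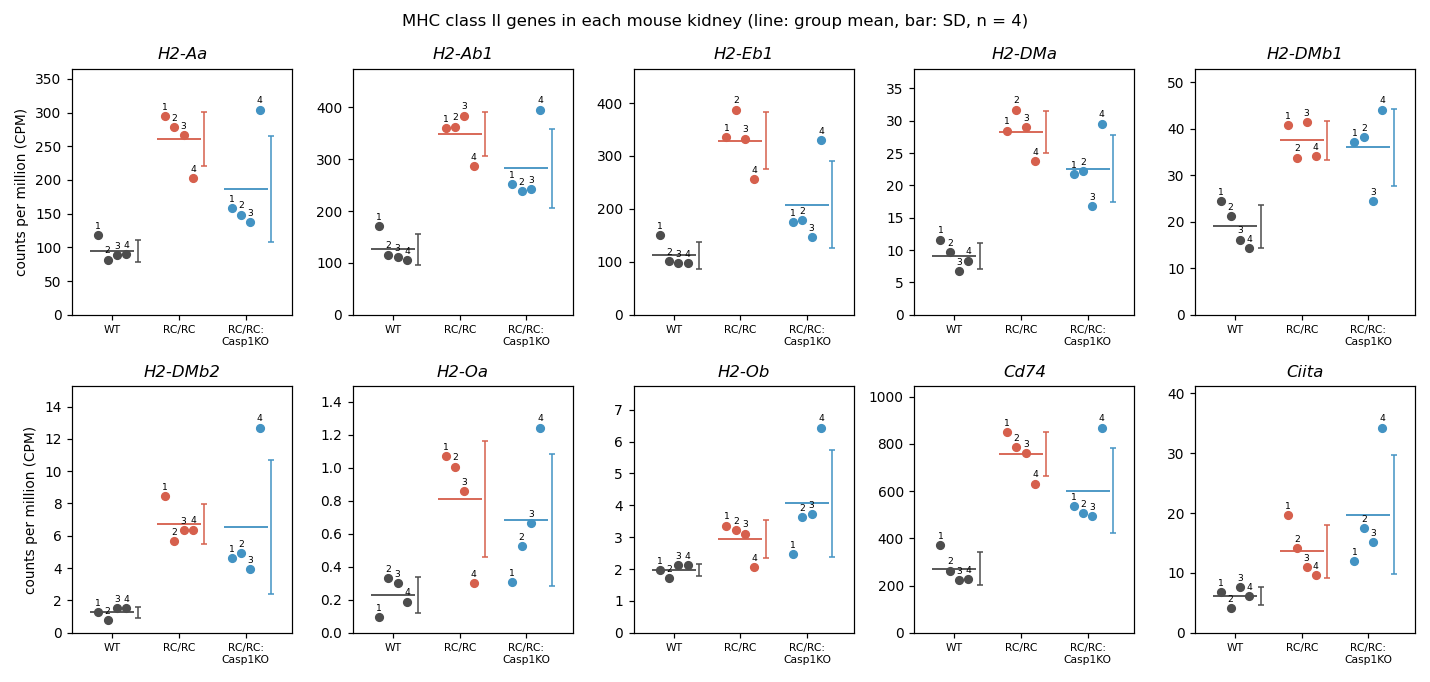
Level of each class II gene in CPM (vertical axis from 0) in every mouse; points carry the mouse number, horizontal lines are group means and bars at the right of each group are ± 1 SD (n = 4). RC/RC points lie above all WT points for 8 genes, and RC/RC:*Casp1*KO mouse 4 is the highest point of its group in all 10 panels.

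Polycystic kidneys held more class II transcript than WT kidneys for the chain genes, *Cd74*, the H2-DM genes and *Ciita*. Of the H2-O genes, *H2-Ob* did not pass and *H2-Oa* failed the filter. Of the 10 genes, 9 passed the filter on low counts in RC/RC against WT, 8 of them rose and none fell, where 9.76% of all 15243 genes tested rose. The median log2 fold change was 1.47 over these 9 genes and -0.02 over all genes tested. In 8 of the 10 genes the 4 RC/RC mice lay above the 4 WT mice without overlap, a pattern found in 12.6% of all genes tested. Since RNA of kidney tissue was sequenced, more presenting cells and more class II RNA per cell cannot be told apart.

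*Cd74*, whose product escorts class II chains out of the endoplasmic reticulum, was the most abundant of the genes per transcript length. It was at 373, 264, 225 and 226 CPM in WT mice and at 849, 788, 760 and 632 CPM in RC/RC mice. The log2 fold change was 1.48 (SE 0.19, adjusted p = 0.00174), or 2.79-fold. Of the WT mice, mouse 1 was the highest, and it was still far below the lowest RC/RC mouse. *Cd74* lay at chr18:60803848-60812646, away from the other class II genes.

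*H2-Aa* and *H2-Ab1* encode the α and β chains of H2-A, the class II molecule that C57BL/6 mice display. *H2-Ab1* was at 171, 116, 112 and 106 CPM in WT mice and 360, 363, 384 and 287 CPM in RC/RC mice, a log2 fold change of 1.47 (SE 0.18, adjusted p = 0.00132). *H2-Aa* was at 119, 81.9, 88.2 and 89.5 CPM in WT mice and 295, 278, 266 and 203 CPM in RC/RC mice, a log2 fold change of 1.46 (SE 0.17, adjusted p = 0.000858). Both chains thus rose 2.76-fold and 2.75-fold, with no overlap between the groups.

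*H2-Eb1*, the β chain gene of H2-E, was at 151, 102, 98 and 98.3 CPM in WT mice and 336, 388, 333 and 257 CPM in RC/RC mice. Its log2 fold change of 1.55 (SE 0.19, adjusted p = 0.00122) was as high as that of the H2-A genes although its α partner is not made. *H2-Ea-ps*, the disabled α chain gene, had no count in 11 mice and 1 count in RC/RC:*Casp1*KO mouse 2. *H2-Eb2*, a lowly expressed relative, was at 0, 0.0476, 0.201 and 0 CPM in WT mice and 0.65, 0.582, 0.483 and 0.171 CPM in RC/RC mice, from 0 to 4 counts in WT and from 4 to 17 in RC/RC, and failed the filter. DESeq2, which tested it, called it higher (adjusted p = 0.0307), and it was called without RC/RC mouse 4 or without WT mouse 3.

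The H2-DM genes, whose product edits the peptides, rose by different amounts. *H2-DMa* was at 11.6, 9.66, 6.79 and 8.39 CPM in WT mice and at 28.5, 31.7, 29 and 23.8 CPM in RC/RC mice, a log2 fold change of 1.63 (SE 0.17, adjusted p = 0.000603). *H2-DMb1* was at 24.4, 21.2, 16.2 and 14.4 CPM in WT mice and 40.8, 33.8, 41.6 and 34.1 CPM in RC/RC mice, a log2 fold change of 0.98 (SE 0.17, adjusted p = 0.00659). Its neighbour *H2-DMb2* was much lower, at 1.29, 0.762, 1.51 and 1.51 CPM in WT mice and 8.49, 5.67, 6.34 and 6.39 CPM in RC/RC mice. The *H2-DMb2* log2 fold change of 2.40 (SE 0.26, adjusted p = 0.000721), or 5.29-fold, exceeded that of the other genes called. The transcripts of *H2-DMb1* and *H2-DMb2* were 94.3% identical over 1129 aligned bases, so the split of reads between them is uncertain, and *H2-DMb2* also shared short matches of up to 162 bases with 8 other genes. With their counts added, an alternative chosen after the data were seen, the log2 fold change was 1.12 (SE 0.16, adjusted p = 0.00263).

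*H2-Ob* and *H2-Oa* encode the chains of H2-O, the brake on H2-DM. *H2-Ob* was at 1.95, 1.71, 2.11 and 2.12 CPM in WT mice and 3.36, 3.23, 3.11 and 2.06 CPM in RC/RC mice. RC/RC mouse 4 lay within the WT range, and the log2 fold change of 0.57 (SE 0.23, 95% interval 0.06 to 1.09) did not pass (adjusted p = 0.136). *H2-Oa* was at 0.0954, 0.333, 0.302 and 0.188 CPM in WT, from 2 to 7 counts, and at 1.07, 1.01, 0.859 and 0.3 CPM in RC/RC mice. RC/RC mouse 4 again overlapped WT. *H2-Oa* failed the filter in this comparison. Without a filter its adjusted p was 0.0687, and with DESeq2 it passed (adjusted p = 0.031). *H2-Oa* was also called higher by edgeR with all 12 mice in the fit and without RC/RC mouse 4. *Ciita*, the transactivator gene at chr16:10488178-10527564, was at 6.81, 4.14, 7.65 and 6.08 CPM in WT mice and 19.7, 14.1, 11 and 9.65 CPM in RC/RC mice. It rose by 1.14 on the log2 scale (SE 0.26, adjusted p = 0.0208) with no overlap, and the call was lost without RC/RC mouse 2 (adjusted p = 0.0524) or without WT mouse 4 (adjusted p = 0.0597).

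**Figure D2:**
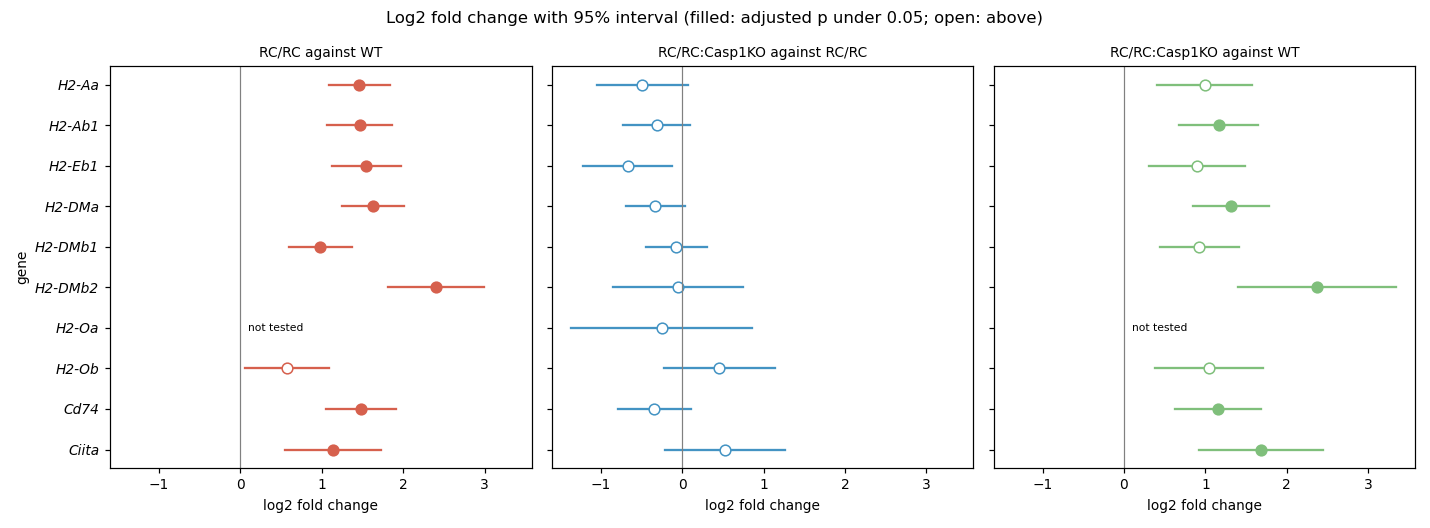
Log2 fold change of each class II gene (horizontal axis) in the 3 comparisons, with lines for the 95% interval of edgeR's fit (n = 4 mice per group); filled points passed an adjusted p of 0.05. In RC/RC against WT 8 points are filled, in RC/RC:*Casp1*KO against RC/RC none is, and in RC/RC:*Casp1*KO against WT 5 are.

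Deletion of *Casp1* in RC/RC mice came with no called change in any of the 10 class II genes. All 10 were tested against RC/RC and 0 passed, where 11.6% of all 15428 genes passed in one direction or the other. At an unadjusted p under 0.05 there was 1 gene, *H2-Eb1*, against 31.7% of all genes tested. DESeq2 called the same 1 gene, against 17.3% of the genes to which it gave an adjusted p. In none of the 10 were the groups free of overlap, against 20.4% of all genes tested. The log2 fold change was negative in 8 genes and positive in 2, with a median of -0.28 against -0.03 over all genes. These values share the RC/RC mice with the comparison above, so the directions of the pair of comparisons are not independent. Females and males were pooled in each group, so an effect in females or in males alone cannot be read from these fits.

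*H2-Eb1* came closest. It was at 176, 179, 147 and 330 CPM in RC/RC:*Casp1*KO mice 1 to 4, a log2 fold change of -0.67 from RC/RC (SE 0.25, 95% interval -1.22 to -0.12, adjusted p = 0.0995, and adjusted p = 0.0437 with DESeq2). *H2-Aa* was at 159, 149, 137 and 304 CPM (log2 fold change -0.49, SE 0.25, adjusted p = 0.211). In both genes mice 1 to 3 lay below every RC/RC mouse and mouse 4 lay among or above them.

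*Cd74* had the same shape, at 536, 508, 493 and 870 CPM (log2 fold change -0.34, SE 0.20, adjusted p = 0.268). *H2-Ab1* was at 253, 238, 243 and 396 CPM (log2 fold change -0.32, SE 0.18, adjusted p = 0.266). *H2-DMa* was at 21.8, 22.2, 16.9 and 29.6 CPM (log2 fold change -0.33, SE 0.16, adjusted p = 0.192). Mice 1 to 3 were again below every RC/RC mouse in all 3 of these genes, and mouse 4 was the highest of its group.

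In 3 more genes the fold change over all 4 mice was small or its interval wide. *H2-DMb1* was at 37.2, 38.3, 24.6 and 44.1 CPM (log2 fold change -0.07, 95% interval -0.44 to 0.31). *H2-DMb2* was at 4.62, 4.91, 3.94 and 12.7 CPM (log2 fold change -0.05, 95% interval -0.85 to 0.75). *H2-Oa* was at 0.305, 0.524, 0.665 and 1.24 CPM (log2 fold change -0.25, 95% interval -1.37 to 0.86). In *H2-DMb2* mice 1 to 3 lay below every RC/RC mouse and mouse 4 above all of them, as for the chains, and without mouse 4 its fold change was -0.58 (adjusted p = 0.0957). That of *H2-Oa* was then -0.71 (adjusted p = 0.373). The values of *H2-DMb1* and *H2-Oa* overlapped those of RC/RC also among mice 1 to 3.

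A positive fold change was found for *Ciita* and *H2-Ob*. *Ciita* was at 12, 17.4, 15.1 and 34.3 CPM (log2 fold change 0.52, SE 0.33, 95% interval -0.22 to 1.27, adjusted p = 0.305). *H2-Ob* was at 2.48, 3.62, 3.71 and 6.45 CPM (log2 fold change 0.46, SE 0.30, adjusted p = 0.331). Their values overlapped those of RC/RC. Across mice the pair was also similar, with a Pearson correlation of log2 CPM of 0.94 over the 12 mice and 0.88 after the group means were removed, as a description only.

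Without RC/RC:*Casp1*KO mouse 4, which these same genes had singled out, 2 genes passed as lower than RC/RC, *H2-Eb1* (log2 fold change -0.97, adjusted p = 0.0154) and *H2-Aa* (-0.82, adjusted p = 0.0193), against 4.42% of all genes that passed as lower in that fit. The median over the 10 genes was then -0.54, and in 6 of 10 the 3 mice lay below all RC/RC mice, against 13.8% of genes. *Ciita* (0.13) and *H2-Ob* (0.15) stayed above 0. Leaving out any other mouse of either group gave 0 called genes.

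Kidneys of RC/RC:*Casp1*KO mice also held more class II transcript than WT kidneys. Of 9 genes tested 5 rose, *H2-Ab1*, *H2-DMa*, *H2-DMb2*, *Cd74* and *Ciita*, where 1.13% of all 15346 genes tested rose. The 4 mice lay above all WT mice in 8 genes, against 7.41% of genes, and the median log2 fold change was 1.15 against 0.01 over all genes. The exceptions were *H2-Eb1*, whose RC/RC:*Casp1*KO mouse 3 lay below WT mouse 1, and *H2-Oa*.

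*Ciita* had a log2 fold change of 1.68 (SE 0.34, adjusted p = 0.0449), *H2-DMb2* of 2.37 (SE 0.43, adjusted p = 0.0308), *H2-DMa* of 1.31 (SE 0.21, adjusted p = 0.0189), *H2-Ab1* of 1.17 (SE 0.22, adjusted p = 0.0331) and *Cd74* of 1.15 (SE 0.23, adjusted p = 0.0458). The values of the genes that did not pass were 0.99 for *H2-Aa* (adjusted p = 0.0908), 0.90 for *H2-Eb1* (0.117), 0.92 for *H2-DMb1* (0.0654) and 1.04 for *H2-Ob* (0.108). DESeq2 called 9 genes higher, these among them. The number called by edgeR rested on single mice. It was 0 without RC/RC:*Casp1*KO mouse 2, WT mouse 2 or WT mouse 4, 1 without WT mouse 3, 2 without RC/RC:*Casp1*KO mouse 1, 3 without WT mouse 1 and 6 without RC/RC:*Casp1*KO mouse 3. Without RC/RC:*Casp1*KO mouse 4 it was 2, *H2-DMa* and *H2-DMb2*, against 0.431% of all genes called higher in that fit. Every fold change was positive in each of these fits. With the counts of *H2-DMb1* and *H2-DMb2* added, the sum rose by 1.07 (SE 0.22, adjusted p = 0.0467).

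The order of the genes by transcript level was nearly the same in every mouse. On the FPKM scale, which divides by gene length, the mean over 12 mice was 392 for *Cd74*, 212 for *H2-Ab1*, 186 for *H2-Eb1*, 163 for *H2-Aa*, 22.3 for *H2-DMb1* and 13.1 for *H2-DMa*. Next came *H2-DMb2* at 3.36, *Ciita* at 2.57, *H2-Ob* at 1.14 and *H2-Oa* at 0.478. Each gene exceeded the next in all 12 mice, with 2 exceptions. *H2-Ab1* exceeded *H2-Eb1* in 11 mice, and *H2-DMb2* exceeded *Ciita* in 6, namely in 0 WT mice, 4 RC/RC mice and 2 RC/RC:*Casp1*KO mice.

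Ratios between partner genes within a mouse compare the genes free of library scaling. *Cd74* stood at 1.70 to 2.03 times *H2-Ab1* in FPKM in all 12 mice, with geometric means of 1.85 in WT, 1.87 in RC/RC and 1.82 in RC/RC:*Casp1*KO. *H2-Aa* stood at 0.809, 0.797 and 0.688 times *H2-Ab1* in the same groups. *H2-DMa* stood at 0.409, 0.398, 0.348 and 0.479 times the sum of *H2-DMb1* and *H2-DMb2* in WT mice and at 0.526, 0.731, 0.551 and 0.535 times that sum in RC/RC mice, a difference of 0.52 on the log2 scale with no overlap. That difference had p = 0.0286 in the two-sided exact permutation test, the smallest 4 against 4 mice can give, and 0.245 after Benjamini-Hochberg adjustment over 15 ratio tests. None of the 15 passed. With that smallest p, 1 ratio alone could not pass after adjustment over 15 tests, so its failure does not show an unchanged ratio. The ratio of *H2-DMb2* to *H2-DMb1*, added after the data were seen and not tested, was 0.034 to 0.0993 in WT, 0.144 to 0.197 in RC/RC and 0.118 to 0.272 in RC/RC:*Casp1*KO mice.

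**Figure D3:**
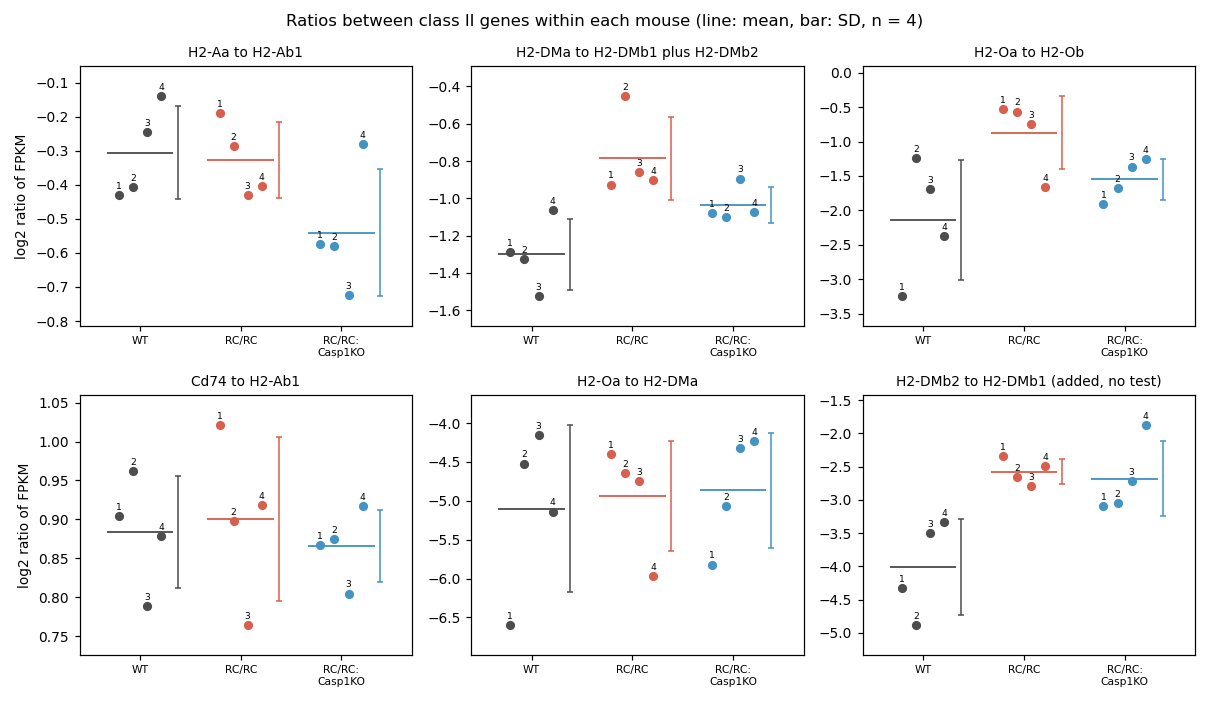
Log2 ratio of FPKM between partner genes in every mouse (points numbered by mouse, lines group means, bars ± 1 SD, n = 4; axes do not start at 0). The *Cd74* to *H2-Ab1* ratio spans a narrow range in all groups, the *H2-DMa* ratio is higher in every RC/RC than in every WT mouse, and the *H2-Oa* ratios spread widely, with 2 to 28 counts of *H2-Oa* behind each point.

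Genes that control class II transcription were read from a list of 18, of which 17 were tested. In RC/RC against WT 7 rose and 0 fell (*Spi1*, *Irf1*, *Irf4*, *Irf8*, *Spib*, *Ifngr1* and *Ifngr2*), with a median log2 fold change of 0.25. *Irf4*, a lymphoid and dendritic cell factor, had a log2 fold change of 2.62 (SE 0.42, adjusted p = 0.00424), and *Spi1*, which encodes the myeloid factor PU.1, of 2.06 (SE 0.26, adjusted p = 0.0016). The genes of the ubiquitous RFX, NF-Y and CREB factors that bind the X and Y boxes did not pass. The most abundant of the list were *Jak1* (log2 fold change 0.04), *Nfyc* (-0.19), *Jak2* (0.25) and *Creb1* (-0.06). In RC/RC:*Casp1*KO against RC/RC 3 fell, *Spi1* (-1.05, SE 0.28, adjusted p = 0.0416), *Ifngr1* and *Ifngr2*, where 4.41% of all genes tested fell. That count was 0 without RC/RC mouse 3, RC/RC:*Casp1*KO mouse 1 or RC/RC:*Casp1*KO mouse 2, and 1 without RC/RC mouse 2, without RC/RC:*Casp1*KO mouse 3 or with library size alone. It was 4 without RC/RC mouse 4, and 4 without RC/RC:*Casp1*KO mouse 4, where *Irf8* (adjusted p = 0.0284) joined these 3. None of the list passed against WT with edgeR, while DESeq2 called 4 higher (*Spi1*, *Irf4*, *Irf8* and *Spib*), and edgeR with library size alone or with all 12 mice in the fit called 1.

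Among 12 interferon γ responsive genes, *Ciita* included, 4 rose in RC/RC against WT (*Gbp2*, *Gbp5*, *Cxcl10* and *Ciita*), with a median of 0.80. *Cxcl10*, a T cell chemokine gene, had a log2 fold change of 1.58 (SE 0.27, adjusted p = 0.00607). The most abundant, the GTPase genes *Irgm1* (0.39), *Irgm2* (0.50), *Gbp3* (0.22) and *Iigp1* (0.70), did not pass, and the count was 1 without RC/RC mouse 2 or without WT mouse 4. *Ciita* was the 1 gene of this list that passed in RC/RC:*Casp1*KO against WT, a call lost without RC/RC:*Casp1*KO mouse 2 or 4 or any 1 WT mouse. None passed against RC/RC in the fit of all 8 mice with edgeR, while *Cxcl10* passed as lower with DESeq2 (adjusted p = 0.0404) and without RC/RC:*Casp1*KO mouse 4 (-1.33, adjusted p = 0.0337), and 1 gene passed as lower without RC/RC mouse 4. Of 5 genes of other function within the class II region, *Psmb8* (1.08) and *Psmb9* (0.94), immunoproteasome subunits, rose in RC/RC against WT, while *Brd2* (0.25), *Tap1* (0.67) and *Tap2* (0.38) did not pass. The count was 0 without RC/RC mouse 1, RC/RC mouse 2, WT mouse 2 or WT mouse 4, and 3 with DESeq2, which added *Tap1* (adjusted p = 0.0422). In RC/RC:*Casp1*KO mice none passed against WT or RC/RC, except 1 that was lower than in RC/RC without mouse 4.

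Of 11 endosomal processing genes tested, *Ctss*, the protease that trims the invariant chain, was the 1 that rose in RC/RC against WT (log2 fold change 1.77, SE 0.17, adjusted p = 0.00041), where 9.76% of all genes tested rose. With library size alone 2 rose. *Ctss* was at 26.2, 18.2, 16.4 and 17.9 CPM in WT mice, 79.8, 66.3, 67.6 and 54.7 CPM in RC/RC and 22.8, 24.7, 23.4 and 75.6 CPM in RC/RC:*Casp1*KO mice. Mice 1 to 3 of the last group lay within the WT range and mouse 4 within that of RC/RC. The abundant *Lamp1* (-0.20), *Cd63* (0.15), *Ctsb* (0.02) and *Lamp2* (-0.37), which every cell uses, did not pass. Against RC/RC, *Ctsd* and *Ifi30* fell in RC/RC:*Casp1*KO mice, a count that was 0 without RC/RC mouse 3 or without any 1 of RC/RC:*Casp1*KO mice 1 to 3. Without mouse 4 of that group 2 genes again fell, but *Ctss* (-1.51, adjusted p = 0.00448) took the place of *Ctsd* (adjusted p = 0.0706) beside *Ifi30*. The count against RC/RC was also 0 with library size alone, 1 without RC/RC mouse 2 or without a filter, and 3 with DESeq2 or without RC/RC mouse 4. None passed against WT with edgeR, while DESeq2 called 4 lower (*Ctsl*, *Ctsd*, *Lamp1* and *Lamp2*).

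Genes of the cells that meet class II also differed. Of 10 tested genes of class II recognition by T cells, 10 rose in RC/RC against WT (median 1.95), among them *Cd4* (1.95), *Lck* (1.89), *Cd3e* (1.95), *Cd3g* (2.11) and *Trbc2* (2.32), the last named with SE 0.34 and adjusted p = 0.00296. Without RC/RC mouse 2 the count was 6. Of 5 tested co-stimulatory partners, 3 rose, *Cd86* (1.31), *Cd83* (1.30) and *Icosl* (0.62), and *Cd274* (-0.03) and *Cd40* (0.65) did not pass. None of either list passed in RC/RC:*Casp1*KO mice, whether set against RC/RC or WT. Without mouse 4 of that group *Cd83* (adjusted p = 0.0155), *Cd86* (0.045) and *Trac* (0.032) fell against RC/RC, and DESeq2 on all mice called 1 co-stimulatory gene lower against RC/RC and 2 recognition genes higher against WT.

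Many markers of class II bearing cells, but not all, rose with the class II genes in RC/RC against WT. Their part in the class II result was not tested. The 4 pan-leukocyte markers, *Laptm5* the most abundant, all rose in RC/RC against WT and summed to 62.9, 46.1, 48.6 and 46.8 CPM in WT mice, 144, 154, 119 and 99.4 CPM in RC/RC and 54.5, 73.8, 66.5 and 153 CPM in RC/RC:*Casp1*KO mice. Mouse 4 of the last group was again the one at the RC/RC level. None of the 4 passed against RC/RC in RC/RC:*Casp1*KO mice in the edgeR fit of all 8, and 3 fell when mouse 4 was left out. DESeq2 called *Coro1a* (adjusted p = 0.00949) and *Laptm5* (0.0242) lower, and 1 marker was lower with all 12 mice in the fit or without RC/RC mouse 4. *Ptprc*, the gene of the leukocyte antigen CD45, was at 16.3, 24.9, 23.8 and 59 CPM in RC/RC:*Casp1*KO mice.

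Of 10 macrophage markers in the table, *Csf1r* the most abundant, 8 rose in RC/RC against WT and none was at 0 in any mouse. They summed to 239 ± 17.1 CPM in WT, 543 ± 65.1 in RC/RC and 368 ± 119 in RC/RC:*Casp1*KO (SD, n = 4). *Lyz2*, a lysozyme gene, had a log2 fold change of 2.54 (SE 0.23, adjusted p = 0.000358), *Fcgr1* of 2.19 and *C1qa* of 1.73, while *Csf1r* (0.50) and *Mertk* (-0.52) did not pass. DESeq2 called *Csf1r* higher (adjusted p = 0.0498) and *Mertk* lower (adjusted p = 0.0429), against the direction of its list, and 1 marker was also called lower with all 12 mice in the fit or without RC/RC mouse 4. *C1qa* and *C1qb* fell against RC/RC in RC/RC:*Casp1*KO mice, and 7 markers fell when mouse 4 was left out. The call of these 2 genes was lost without any other single mouse. With DESeq2 4 markers fell against RC/RC, and 4 were higher than in WT, where edgeR called none in the fit of all 8 mice. With library size alone edgeR called none lower than in RC/RC.

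Of 8 dendritic cell markers, *Zbtb46* the most abundant, 4 rose in RC/RC against WT, *Cd209a* (2.11), *Xcr1* (1.13), *Itgax* (0.94) and *Zbtb46* (0.46), and *Clec9a* (0.02) did not pass. The count was 1 without RC/RC mouse 1 or without WT mouse 2, 2 without RC/RC mouse 2 or 3 or WT mouse 3 or 4, and 2 with all 12 mice in the fit. Their sum was 25.2 ± 2.27 CPM in WT, 42.9 ± 5.02 in RC/RC and 38.5 ± 13 in RC/RC:*Casp1*KO (SD, n = 4), and none passed in either comparison of RC/RC:*Casp1*KO mice. Without mouse 4 of that group *Cd209a* (adjusted p = 0.0154) and *Batf3* (0.0472) fell against RC/RC. DESeq2 on all mice called 2 markers lower against RC/RC and 2 higher against WT, and edgeR with all 12 mice in the fit called 1 higher against WT. Of 9 T cell markers, several of them also in the recognition list, 7 rose in RC/RC against WT, *Cd5* with a log2 fold change of 3.09 (SE 0.59, adjusted p = 0.00932), and *Cd8a* (0.80) did not pass. None passed in either comparison of RC/RC:*Casp1*KO mice, except *Trac*, as above, without mouse 4, and 2 markers called higher against WT by DESeq2.

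B cell and plasma cell markers were read next. Of the B cell markers, *Ms4a1* (1.45), *Cd79a* (1.86) and *Cd79b* (1.39) rose in RC/RC against WT, and *Cr2*, the most abundant, did not pass (-0.33). At most 1 of these 3 calls was kept without RC/RC mouse 2, WT mouse 1 or WT mouse 2. *Pax5*, which defines the lineage, was at 0.0476, 0, 0.101 and 0.0471 CPM in WT mice and at most 0.368 CPM in any mouse, and was not tested. In RC/RC:*Casp1*KO mice *Cd79b* fell against RC/RC (-0.95, adjusted p = 0.0456), a call lost without any 1 of RC/RC mice 1 to 3 or RC/RC:*Casp1*KO mice 1 to 3, with library size alone, without a filter or with all 12 mice in the fit. Of 2 plasma cell markers tested, *Mzb1* (2.03) and *Sdc1* (1.19) rose in RC/RC against WT, *Mzb1* rose in RC/RC:*Casp1*KO against WT (1.86) and *Sdc1*, which epithelium also makes, fell against RC/RC (-0.76). With 1 mouse left out, the *Mzb1* call against WT held only when that was WT mouse 4, and the call of *Sdc1* was lost without RC/RC mouse 2 or 3 or any 1 of RC/RC:*Casp1*KO mice 1 to 3, or with library size alone. *Tnfrsf17*, at 0.0471 to 0.0503 CPM in WT mice and 0.322 to 0.688 CPM in RC/RC mice, failed the filter in RC/RC against WT. It was called higher without a filter (adjusted p = 0.0066), with DESeq2 (adjusted p = 0.0051) and without RC/RC mouse 3, WT mouse 1 or WT mouse 3.

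Markers of red cells, kidney epithelium and fat were read as lists of cells without constitutive class II. All 5 erythroid markers fell in RC/RC against WT, where 3.18% of all genes tested fell. *Hbb-bs* was the most abundant, and the others were *Hba-a1*, *Hba-a2*, *Hbb-bt* and *Alas2*. Their sum was 712 ± 189 CPM in WT, 228 ± 68.8 in RC/RC and 304 ± 81.3 in RC/RC:*Casp1*KO (SD, n = 4). In RC/RC:*Casp1*KO against WT 4 of them fell, where 0.893% of all genes tested fell, and 1 without RC/RC:*Casp1*KO mouse 1, 2 or 4 or WT mouse 1 or 2. None passed in RC/RC:*Casp1*KO against RC/RC, while DESeq2 called *Alas2* higher (adjusted p = 0.0265). With all 12 mice in the fit, edgeR also called 1 erythroid marker higher in that comparison. Of 9 kidney epithelial markers, *Slc12a3* (-2.03) and *Nphs1* (-0.62) fell in RC/RC against WT, and *Lrp2* (1.52) and *Slc12a3* (1.44) rose in RC/RC:*Casp1*KO against RC/RC, where 7.23% of all genes tested rose. These counts ran from 1 to 3 and from 1 to 4 with each mouse left out, and without RC/RC mouse 1 another marker fell in the second comparison. The most abundant, *Slc34a1* (-0.71), *Umod* (-0.48), *Lrp2* (-1.07, adjusted p = 0.0591) and *Slc12a1* (-0.62), did not pass in RC/RC against WT, and *Aqp2* of the collecting duct had a positive fold change (1.05, adjusted p = 0.0739). With DESeq2 *Aqp2* passed as higher (adjusted p = 0.0134) and *Lrp2* and *Slc5a12* as lower, so that 1 marker rose and 4 fell, the same counts as with all 12 mice in the fit. Of the 4 adipocyte markers, only *Cfd* was tested in the 2 comparisons against WT. In RC/RC:*Casp1*KO against RC/RC all but *Lep* were tested. None passed. The *Cfd* log2 fold change in RC/RC against WT was 5.80, with most of the adipocyte signal in RC/RC mouse 2.

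**Figure D4:**
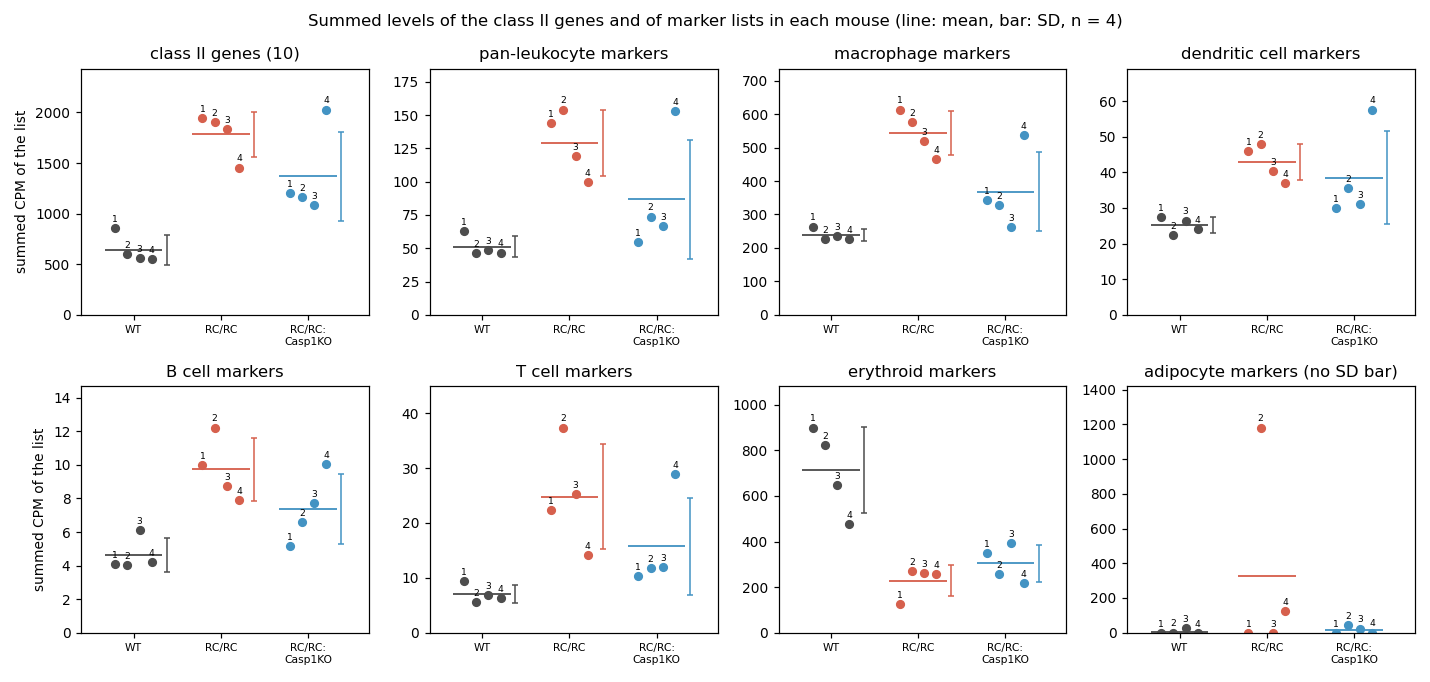
Summed CPM (vertical axes from 0) of the 10 class II genes and of 7 marker lists in every mouse; points carry the mouse number, lines are group means and bars ± 1 SD (n = 4), left out for the adipocyte list. RC/RC:*Casp1*KO mouse 4 is the highest of its group for class II and for the leukocyte lists, while 1 RC/RC mouse holds most of the adipocyte signal.

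The class II genes were also set against *Ptprc* within each mouse, with 0.5 added to both counts. Of the 4 pan-leukocyte markers *Ptprc* rose least in RC/RC against WT (0.87, against 1.27 for *Laptm5*, 1.59 for *Cd53* and 1.77 for *Coro1a*). Its mean was 28.6 CPM in RC/RC and 31 CPM in RC/RC:*Casp1*KO mice, while that of *Coro1a* was 42.6 and 23, of *Laptm5* 44.9 and 25.1 and of *Cd53* 13.1 and 7.72 CPM, so the order of groups below belongs to this 1 marker, and ratios to the other 3 were not computed. The mean log2 ratio of *H2-Aa* to *Ptprc* was 2.58 ± 0.17 in WT, 3.19 ± 0.24 in RC/RC and 2.69 ± 0.40 in RC/RC:*Casp1*KO (SD, n = 4), and that of *Cd74* was 4.09 ± 0.34, 4.74 ± 0.21 and 4.41 ± 0.47. In both genes every RC/RC mouse lay above every WT mouse. The same held for *H2-Ab1*, *H2-Eb1*, *H2-DMa* and *H2-DMb2*, but not for *H2-DMb1*, *H2-Oa*, *H2-Ob* or *Ciita*. *H2-DMb1* stood at 0.25 ± 0.40 in WT and 0.41 ± 0.34 in RC/RC, and *H2-Oa* at -6.07 ± 0.83 and -5.23 ± 0.71. The means of *H2-Ob* were -2.97 ± 0.09, -3.28 ± 0.30 and -2.84 ± 0.24, lowest in RC/RC, with overlap between the groups. *Ciita* stood at -1.37 ± 0.24 in WT, -1.10 ± 0.21 in RC/RC and -0.60 ± 0.15 in RC/RC:*Casp1*KO, and every RC/RC:*Casp1*KO mouse lay above every mouse of both other groups. These ratios were not tested.

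The genes whose level across the 12 mice was most like the mean of *H2-Aa*, *H2-Ab1*, *H2-Eb1* and *Cd74* were, of 14156 genes with a mean over 1 CPM, *Ppfia4* (Pearson correlation of log2 CPM 0.99), *Nckap1l* (0.98), *Sash3*, *Cd48*, *Cd44*, *Aoc1*, *AF251705*, *Rac2*, *Lyz2* and *Pld4* (0.97). With the group means removed they were *Ppfia4* (0.96), *Tyrobp*, *Nckap1l*, *C1qc* and *Was* (0.94). The points share libraries and differ in composition, as the marker lists show, and these values are a description. Within the group of 10, the 45 pairwise correlations over 12 mice ran from 0.611 to 0.995 with a median of 0.86, and from 0.15 to 0.97 with the group means removed. The lowest of the latter was *H2-DMb1* with *H2-Oa*, and the highest *H2-Ab1* with *Cd74*.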

How the data were processed

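The authors deposited 1 table of raw read counts per gene for 12 kidney libraries. Per the submitters' processing notes, bases were called with CASAVA 1.8 and reads were aligned with STAR to mm10; the counting tool, annotation and strand setting are not given in the sources used here, so overlapping antisense reads cannot be told apart. Columns of the authors' own comparisons (fold changes and p-values) and their normalized values were not used, and 0 columns belonged to an unknown sample. Counts were taken as deposited. edgeR 4.0.16 (TMM, filterByExpr, quasi-likelihood test) under R 4.3.3 was fitted to the 8 mice of each pair of groups, with Benjamini-Hochberg adjustment over all genes tested and a threshold of 0.05. Sex entered no fit, since the columns do not give it. Each SE was derived from the fold change and its quasi-likelihood F (log2 fold change over the root of F), and 95% intervals were built from it. CPM used TMM factors of 12 libraries, and FPKM the table's gene length and the reads counted on genes. Ratios were compared by two-sided exact permutation tests (70 splits). The fit was also run on simulated counts with known changes, drawn with the same spread for all genes and no outlying mouse. That run was a check of the code and does not measure how reliable the calls are in these data. Transcript likeness was measured with BLAST 2.17.0 on GENCODE vM39 transcripts, for identity only and not for coordinates.

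Alternatives were DESeq2 1.42.0, RLE factors, library size alone, other filters, 12 mice in 1 fit, each mouse left out, and, added after the data were seen, *H2-DMb1* and *H2-DMb2* summed. The members and lists were chosen with earlier results of these data known. All members are named; from each list the 4 genes of highest mean CPM, the 2 largest changes called in RC/RC against WT and any gene called against the direction of its list are named, and genes given beyond these, such as the full set of calls of a list or *Pax5*, were chosen after their values were seen. Protein sequences were not used here, and 1 marker of a list is not reported here, though list sums include it. Precision is limited by 4 mice a group and, under about 10 counts, by counting error. Kidneys came from separate mice.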

Additional observations from a re-analysis of the deposited data

Results flagged for a closer look

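The highest and lowest mouse of each group was compared with the gap to its nearest neighbour (Dixon's rule at 95%), for the levels of the 10 genes, the sums of the lists and the ratios. Of 99 groups 18 were singled out, where chance gives about 1 in 20; many of these values share mice and genes, so they are not separate findings.

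RC/RC:*Casp1*KO mouse 4 stood high for *H2-Aa* (304 CPM against 137 to 159 in the other 3), *H2-Ab1* (396 against 238 to 253), *H2-DMb2* (12.7 against 3.94 to 4.91), *Cd74* (870 against 493 to 536) and the sum of the 10 genes (2028 against 1086 to 1201). It also stood high in the summed CPM of T cell markers (29 against 10.3 to 12), of class II recognition genes (28.3 against 11 to 13.4) and of the neighbours in the class II region (304 against 256 to 257).

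WT mouse 1 stood high for *H2-Ab1* (171 CPM against 106 to 116), *H2-Eb1* (151 against 98 to 102), the sum of the 10 genes (860 against 552 to 601) and the pan-leukocyte markers (62.9 against 46.1 to 48.6). WT mouse 3 stood high for B cell markers (6.14 against 4.05 to 4.19 CPM) and adipocyte markers (24.3 against 0.0471 to 1.00).

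RC/RC mouse 2 stood high for adipocyte markers (1182 CPM against 0.0382 to 124) and for the log2 ratio of *H2-DMa* to the *H2-DMb* sum (-0.45 against -0.93 to -0.86). RC/RC mouse 1 stood low for erythroid markers (125 against 259 to 269 CPM). RC/RC:*Casp1*KO mouse 3 stood high for the log2 ratio of *H2-DMa* to the *H2-DMb* sum (-0.89 against -1.10 to -1.07).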

How the results depend on the processing

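Class II calls in RC/RC against WT numbered 8 of 10 genes in the settings with another scaling or filter, 9 with DESeq2 or with all 12 mice in the fit, and 7 to 9 with each mouse left out. No fold change of the 9 genes tested changed sign in that comparison or against WT in RC/RC:*Casp1*KO mice. In RC/RC:*Casp1*KO against RC/RC the count was 0, 1 with DESeq2, and 0 to 2 with a mouse left out; against WT it was 5, 9 with DESeq2, 3 with at least 10 counts in every mouse, and 0 to 6 with a mouse left out. Genes called in all numbered 1971 in RC/RC against WT (3027 with DESeq2, 1162 to 2440 with a mouse left out), 1797 against RC/RC in RC/RC:*Casp1*KO mice (3172 with DESeq2, 993 with library size alone, 438 to 2789), and 311 against WT (1387 with DESeq2, 167 with the stricter filter, 108 to 547). Scaling by library size alone moved the share of calls that were higher from 75.4% to 86.1%, from 62.1% to 82.0% and from 55.9% to 79.8% in the same order, and the median of all genes in the last comparison from 0.01 to 0.14 on the log2 scale, without changing a member's call. The causes of these shifts were not tested.

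Fold changes near 0 against RC/RC changed sign. *H2-DMb2* came to 0.0084 with library size alone, 0.063 without RC/RC mouse 1, and 0.083, 0.059 and 0.12 without RC/RC:*Casp1*KO mouse 1, 2 and 3. With each mouse left out *H2-DMb2* ran from -0.58 to 0.12, *H2-DMb1* from -0.17 to 0.072 (the highest without RC/RC:*Casp1*KO mouse 3) and *H2-Oa* from -0.71 to 0.0046 (the highest without mouse 1 of that group). With each mouse left out, log2 differences of the ratios ran, for *H2-Aa* to *H2-Ab1*, from -0.068 to 0.033 in RC/RC against WT. For *Cd74* to *H2-Ab1* they ran from -0.023 to 0.062 in RC/RC against WT, from -0.080 to 0.0054 in RC/RC:*Casp1*KO mice against RC/RC, then from -0.049 to 0.0084 against WT. For *H2-Oa* to *H2-DMa* they ran from -0.33 to 0.51, from -0.27 to 0.40 and from -0.26 to 0.56 in the same order.

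No paired analysis was possible because the columns carry mouse numbers and not the replicate numbers of the labels. Depth limits *H2-Oa*, at 2 to 7 counts in WT. With 4 mice a group, a missed threshold does not show that levels were equal.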
